A study of Bos indicus x Bos taurus with 45 samples.

Results

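The miRNAs described here are bta-miR-451, bta-miR-144 and bta-miR-486, the 3 microRNAs best known from red blood cells. They were chosen by name: every row of the 4 count tables named for any of them, from either arm of the hairpin, was taken, whatever its value. This gave 5 distinct names of the 603 listed over the tables. bta-miR-451, bta-miR-144 and bta-miR-486 were listed in every tissue, bta-miR-144-5p in liver, kidney and tongue, and bta-miR-486-3p in liver, muscle and tongue. The tables therefore held 5 of 563 rows in liver, 4 of 436 in kidney, 4 of 439 in skeletal muscle and 5 of 460 in tongue.

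MicroRNAs are short RNAs that guide Argonaute proteins to messenger RNAs and lower their output. miR-144 and miR-451 are cut from a shared primary transcript that the erythroid transcription factor GATA1 switches on in red cell precursors. miR-451 is matured without Dicer, by the slicing activity of Argonaute 2, and in mice its loss impairs late red cell formation. miR-486 lies within the ankyrin 1 gene, whose products serve the red cell membrane skeleton and the muscle fibre, and it is known to be abundant both in red cells and in striated muscle. In mid-gestation the fetal liver is a main site of red cell formation, while kidney, muscle and tongue carry red cells in their blood vessels.

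Small RNA was sequenced from tissues of bovine fetuses (Bos indicus x Bos taurus) at about day 105 of gestation. LOS fetuses were conceived by assisted reproduction and showed large offspring syndrome, in which ruminant fetuses overgrow. ART fetuses were conceived by assisted reproduction and had a normal phenotype, and control fetuses were conceived by artificial insemination and were healthy. Liver came from 4 LOS, 4 ART and 5 control fetuses, kidney and skeletal muscle from 4 LOS and 4 control fetuses each, and tongue from 7 LOS and 9 control fetuses, of which 3 LOS and 4 control fetuses were male and the others female. Sex was labelled for tongue alone. Whole pieces of tissue were used, so fewer cells of a type and less RNA per cell cannot be told apart.

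The listed miRNAs summed to 3379816 to 4976770 reads per liver library, 6132982 to 9170756 per kidney library, 4744968 to 6456252 per muscle library and 9357833 to 13822348 per tongue library. Levels are given as CPM, in which each count is divided by the sum of the listed counts of that library, with the SD between fetuses. Each tissue has its own table, so tissue and table cannot be told apart. The hepatocyte miRNAs (miR-122, miR-885, miR-192, miR-194 and miR-148a, of which 5 were listed in liver, 4 in kidney and in muscle and 3 in tongue) summed to 152500 to 189400 CPM in liver, 30450 to 37450 CPM in kidney, 15510 to 26540 CPM in muscle and 14220 to 29120 CPM in tongue. These sums cover different members by tissue, and miR-122 was not listed in tongue, so they do not measure hepatocytes in the other tissues. The list for kidney and gut epithelium (miR-192, miR-194, miR-215, miR-200a, miR-200b and miR-200c), which shares miR-192 and miR-194 with the hepatocyte list, summed to more in liver (62400 to 82130 CPM) than in kidney (21330 to 25940 CPM), so it does not mark the kidney label. The 6 skeletal muscle miRNAs (miR-1, miR-133a, miR-133b, miR-206, miR-208b and miR-499) summed to 17900 to 22390 CPM in muscle and 16020 to 23960 CPM in tongue. In liver 3 of those muscle miRNAs were listed and summed to 62.5 to 208.5 CPM, and in kidney miR-133a alone was listed, at 17.7 to 87.6 CPM.

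bta-miR-451 and bta-miR-144 were liver miRNAs in these fetuses, far above the other tissues, whereas bta-miR-486 reached similar CPM of listed reads in skeletal muscle and in liver. bta-miR-451 had 14290, 14934, 12382 and 13528 CPM in the livers of LOS fetuses 1 to 4, 13479, 12919, 12781 and 13588 CPM in those of ART fetuses 1 to 4, and 13930, 13969, 13657, 12478 and 13270 CPM in those of control fetuses 1 to 5. The 3 groups of livers overlapped, and the SD over all 13 was 5.38% of the mean of 13480 CPM. Outside the liver the level was far lower and more uneven. In kidney it was 203.2, 98.4, 126.9 and 94.3 CPM in LOS 1 to 4, against 309.8, 195.5, 131.2 and 119.5 CPM in control 1 to 4. In muscle it was 126.2, 132.1, 72.7 and 70.2 CPM in LOS 1 to 4, against 69.7, 144.5, 138.8 and 127.8 CPM in control 1 to 4. Control 1 was thus the highest kidney and the lowest muscle. In tongue bta-miR-451 had a lowest value of 127.7, a median of 200.7 and a highest of 296.4 CPM in the 7 LOS fetuses, against 129.9, 248.1 and 339.0 CPM in the 9 control fetuses. The SD was 45.6% of the mean in kidney, 30.1% in muscle and 29.6% in tongue. Counting error alone would give 2.86%, 3.98% and 1.96%.

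**Figure D1:**
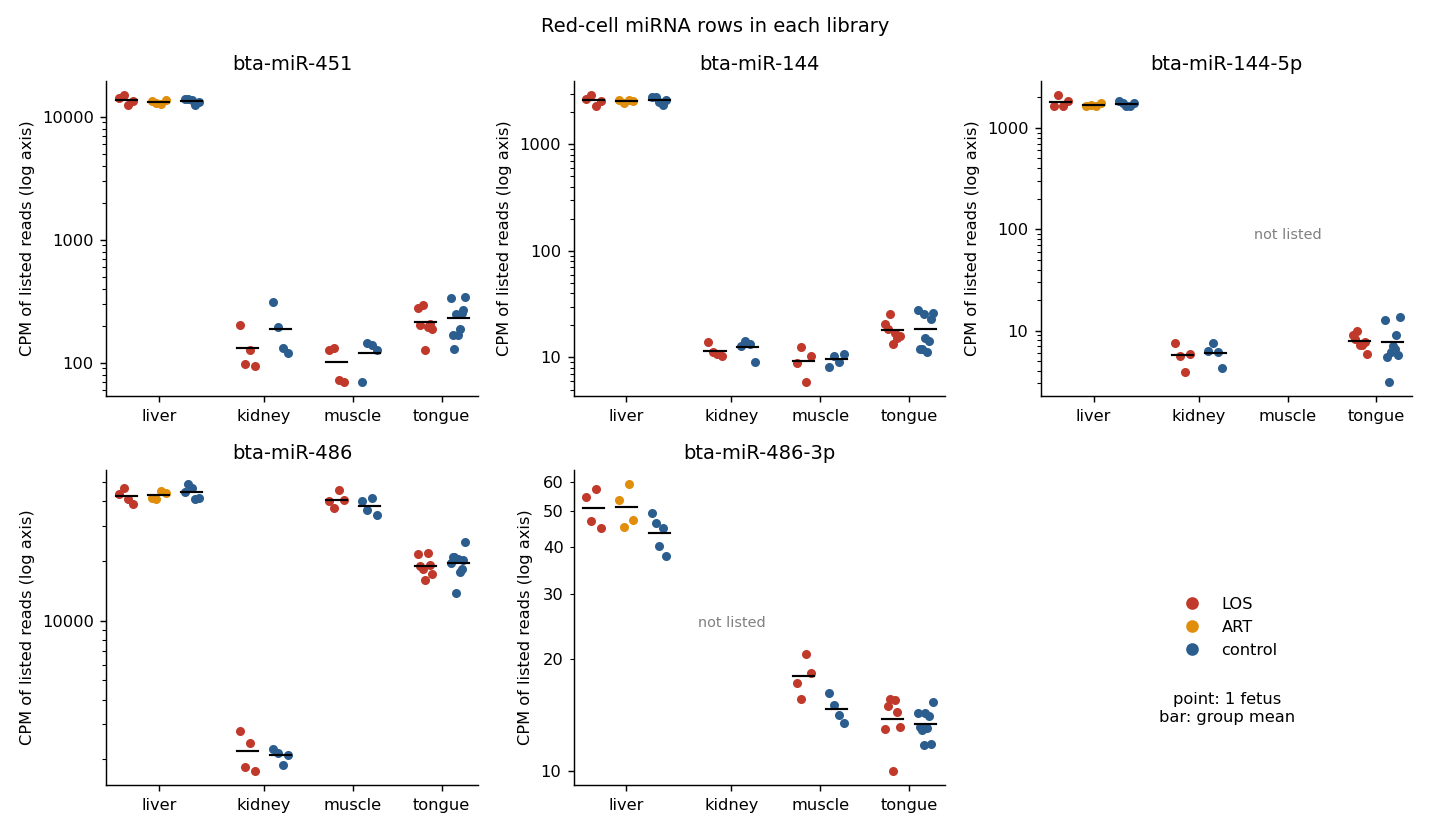
Level of each red-cell miRNA in every library, in CPM of the listed reads of its table on a log axis, by tissue and phenotype; each point is 1 fetus and each bar a group mean. The 13 livers sit between 12380 and 14930 CPM for bta-miR-451, all above the other tissues, whereas bta-miR-486 reaches similar CPM in liver and muscle.

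bta-miR-144, which comes from the same primary transcript as miR-451, had 2689, 2884, 2293 and 2547 CPM in the livers of LOS 1 to 4, 2619, 2427, 2625 and 2530 CPM in those of ART 1 to 4, and 2770, 2786, 2501, 2342 and 2592 CPM in those of control 1 to 5. LOS livers held both the highest and the lowest of the 13 values. In kidney bta-miR-144 had 13.9, 11.3, 10.9 and 10.2 CPM in LOS 1 to 4, against 12.9, 14.2, 13.4 and 9.13 CPM in control 1 to 4. In muscle it had 8.83, 12.5, 5.90 and 10.2 CPM in LOS 1 to 4, against 8.17, 10.3, 9.09 and 10.9 CPM in control 1 to 4. These low levels rested on 56 to 108 reads in kidney and on 28 to 79 reads in muscle, where counting alone gives an SD of 10.4% and 13.5% of the mean, beside 15.6% and 20.8% observed. In tongue the lowest, median and highest values were 13.5, 17.1 and 25.8 CPM in LOS fetuses, against 11.3, 15.3 and 27.8 CPM in control fetuses. The other arm, bta-miR-144-5p, had 1628 to 2095 CPM in LOS livers, 1628 to 1745 CPM in ART livers and 1632 to 1831 CPM in control livers. It had 3.89 to 7.56 CPM in LOS kidneys and 4.24 to 7.55 CPM in control kidneys, and 5.90 to 9.86 CPM in LOS tongues and 3.11 to 13.4 CPM in control tongues. LOS and control overlapped in each of these tissues.

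bta-miR-486 was the sixth most abundant row of the liver table by its mean and the seventh of the muscle table. Its values were 43275, 46487, 41181 and 38643 CPM in the livers of LOS 1 to 4, 41242, 41084, 45197 and 43700 CPM in those of ART 1 to 4, and 44282, 48714, 46293, 41024 and 41330 CPM in those of control 1 to 5. In muscle bta-miR-486 had 40034, 36954, 45258 and 40616 CPM in LOS 1 to 4, against 39930, 35966, 41357 and 33934 CPM in control 1 to 4. Tongue was intermediate, with lowest, median and highest values of 16070, 18750 and 21890 CPM in LOS fetuses, against 13760, 20280 and 24830 CPM in control fetuses. Kidney was lowest, with 2786, 1830, 2427 and 1754 CPM in LOS 1 to 4, against 2252, 2146, 1880 and 2093 CPM in control 1 to 4. This row is marked "mixed" in place of a named precursor, so its reads cannot be assigned to a single locus and its level is uncertain in that respect. The other arm, bta-miR-486-3p, was scarce, at 45.0 to 57.3 CPM in LOS livers, 45.3 to 59.1 CPM in ART livers and 37.7 to 49.5 CPM in control livers. It had 15.7 to 20.7 CPM in LOS muscles and 13.5 to 16.2 CPM in control muscles, and 10.03 to 15.6 CPM in LOS tongues and 11.8 to 15.3 CPM in control tongues.

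The tissues were compared in a pooled fit of 32 libraries, those of LOS 1 to 4 and control 1 to 4 in each tissue, over the 374 miRNAs that the 4 tables share and with the fetus number as a block (edgeR's quasi-likelihood test, Benjamini-Hochberg adjustment, call at an adjusted p under 0.05). The tongue libraries in this fit were all labelled female. CPM in this fit were scaled by TMM factors over the 32 libraries and so differ from the CPM above. bta-miR-144 averaged 1885 ± 138 scaled CPM in liver, against 15.5 ± 2.6 in kidney, 11.5 ± 2.2 in muscle and 17.9 ± 5.7 in tongue (SD, n = 8 each). The liver level was 121-fold that of kidney, 164-fold that of muscle and 106-fold that of tongue, and in all 3 comparisons bta-miR-144 had the highest fold of the 374 miRNAs. Of the 563 liver rows, those not listed in every tissue, miR-122 and miR-223 among them, were outside this ranking. Its log2 differences were 6.92 ± 0.18 (SE, adjusted p = 4.19e-22), 7.36 ± 0.19 (adjusted p = 6.36e-23) and 6.73 ± 0.18 (adjusted p = 1.79e-22). bta-miR-451 averaged 9890 ± 583 scaled CPM in liver, against 203.8 ± 81.4 in kidney, 132.6 ± 36.2 in muscle and 204.8 ± 68.9 in tongue. This was 51.1-fold, 75.6-fold and 50.1-fold higher in liver and ranked 2, 3 and 3 by fold. The log2 differences of bta-miR-451 were 5.68 ± 0.23 (SE, adjusted p = 1.59e-18) against kidney, 6.24 ± 0.23 (adjusted p = 3.24e-19) against muscle and 5.65 ± 0.23 (adjusted p = 1.10e-18) against tongue. For both miRNAs all 8 livers lay above every other library; of the 374 miRNAs, 77.5% did not overlap between liver and kidney, 72.5% between liver and muscle and 70.6% between liver and tongue.

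Such calls were the rule between tissues: 91.2% of the 374 miRNAs were called between liver and kidney, 89.6% between liver and muscle and 89.3% between liver and tongue, with 50.5%, 47.3% and 48.9% called higher in liver. Among these 374 miRNAs the size of the difference, and not the call, therefore sets bta-miR-144 and bta-miR-451 apart in this description. The median miRNA differed by 0.24 (log2) between liver and kidney, 0.10 between liver and muscle and 0.17 between liver and tongue with TMM factors, and by 1.11, 0.87 and 0.53 without scaling. The share of calls that were higher in liver was 55.4%, 52.8% and 54.8% with the factors and 72.9%, 69.6% and 64.6% without them.

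**Figure D2:**
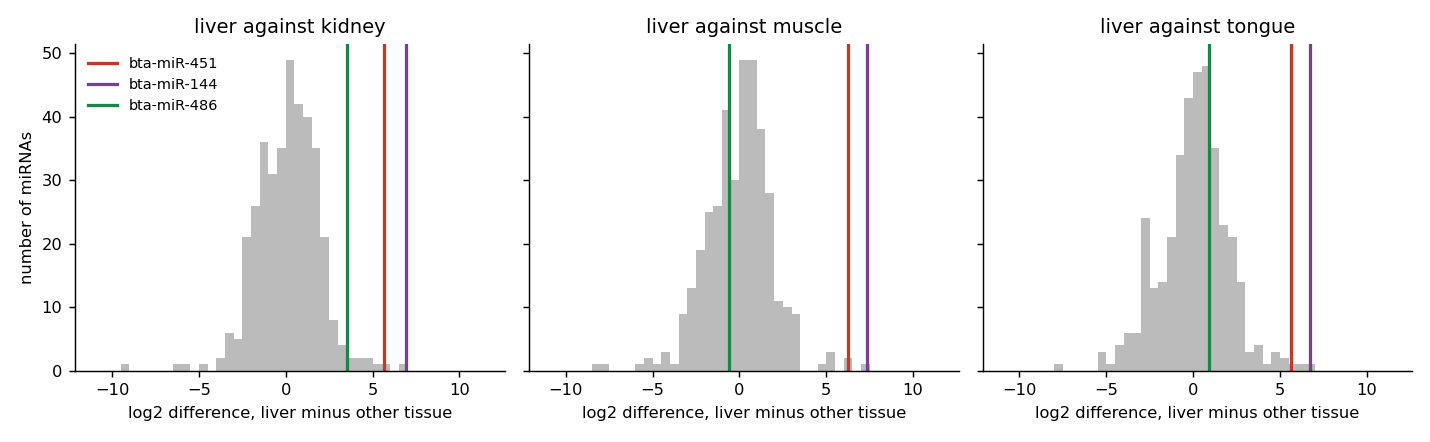
Distribution of the log2 difference between liver and each other tissue over the 374 miRNAs listed in all 4 tables (grey bars, number of miRNAs), with the red-cell miRNAs as vertical lines. bta-miR-144 and bta-miR-451 lie at the right end in every panel (6.92 and 5.68 against kidney), whereas bta-miR-486 lies at 3.52, -0.59 and 0.89; the line at -0.59 against muscle turns to 0.19 without scaling factors.

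bta-miR-486 followed another order. It averaged 31705 ± 2476 scaled CPM in liver, against 2778 ± 481 in kidney, 47752 ± 6071 in muscle and 17276 ± 2681 in tongue (SD, n = 8 each). It was higher in liver than in kidney by 3.52 ± 0.10 on the log2 scale (SE, edgeR adjusted p = 7.98e-22) and than in tongue by 0.89 ± 0.09 (adjusted p = 3.27e-10). Against muscle it was lower in liver by -0.59 ± 0.09 (adjusted p = 5.01e-07) with TMM factors, but higher by 0.19 without scaling factors (adjusted p = 0.0256), so the order of liver and muscle turned with the scaling. Relative to the median of all 374 miRNAs the difference between liver and muscle was -0.70 with TMM factors and -0.69 without scaling. Beside these values, the summed skeletal muscle miRNAs given above were at similar levels in muscle and tongue and low in liver and kidney. Their part in the level of bta-miR-486 was not tested.

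Among the tissues other than liver, bta-miR-451 did not pass the test between tongue and kidney (0.03 ± 0.19, 95% interval -0.36 to 0.42, adjusted p = 0.898), and neither did bta-miR-144 (0.19 ± 0.16, interval -0.13 to 0.51, adjusted p = 0.264), although 83.2% of miRNAs did. Without scaling both were called higher in tongue, bta-miR-451 by 0.52 and bta-miR-144 by 0.68, where the median miRNA was at 0.55 and 70.8% of calls were higher, against 0.06 and 53.7% with TMM factors. Muscle had the lowest level of both. bta-miR-451 was lower in muscle than in kidney by -0.56 ± 0.19 (edgeR adjusted p = 0.00886) and bta-miR-144 by -0.43 ± 0.17 (adjusted p = 0.0211), where 85.6% of miRNAs were called. Without control 1 in the fit bta-miR-451 no longer passed (-0.37), and without LOS 1 bta-miR-144 did not (-0.37), nor did it without scaling (-0.33). In the control fetuses alone neither passed (-0.65 and -0.47), and in the LOS fetuses alone bta-miR-144 did not (-0.42). In tongue, compared with muscle, bta-miR-451 was higher by 0.59 ± 0.19 (adjusted p = 0.00725) and bta-miR-144 by 0.62 ± 0.16 (adjusted p = 0.00142), where 76.7% of miRNAs were called, 51.6% of them higher in tongue with TMM factors and 72.8% without. These differences did not pass in the control fetuses alone (0.45 and 0.62). bta-miR-486 passed in each pair, at 2.63 ± 0.09 for tongue against kidney, 4.11 ± 0.10 for muscle against kidney and -1.48 ± 0.09 for tongue against muscle. With TMM factors and all 8 fetuses the order of bta-miR-451 and bta-miR-144 was liver, then tongue and kidney without a detectable difference, then muscle; tongue came above kidney without scaling, and muscle did not pass as lowest in control fetuses alone. That of bta-miR-486 was muscle, liver, tongue and kidney, with liver above muscle without scaling.

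Ratios within a library do not depend on its total. bta-miR-486 had 3.21 ± 0.19 reads per bta-miR-451 read in liver (SD, n = 13; range 2.86 to 3.54), 15.0 ± 4.3 in kidney (n = 8; 7.27 to 19.1), 93.1 ± 29.4 in tongue (n = 16; 55.5 to 161.0) and 398 ± 162 in muscle (n = 8; 249 to 623). These 4 ranges did not overlap. Ligation and amplification differ between miRNAs, so the ratio compares libraries and does not count molecules. bta-miR-144 amounted to 19.2% ± 0.7 of bta-miR-451 in liver (range 18.3 to 20.5%), 8.39% ± 2.44 in kidney (4.16 to 11.5%), 9.13% ± 2.75 in muscle (6.54 to 14.6%) and 8.29% ± 1.37 in tongue (5.56 to 10.5%). The 13 livers thus lay above every other library, and kidney, muscle and tongue overlapped. The arms of the miR-144 hairpin also stood in other proportions: bta-miR-144-5p amounted to 67.0% ± 4.0 of bta-miR-144 in liver (60.5 to 72.7%), 48.8% ± 6.7 in kidney (35.8 to 57.5%) and 43.5% ± 11.4 in tongue (24.3 to 63.8%). Kidney lay wholly below liver, while tongue reached into its range. bta-miR-144-5p rested on 26 to 54 reads per kidney library and on 43 to 158 per tongue library. Counting alone gives its level an SD of 14.8% and 10.5% of the mean there, so part of these wide ranges is counting error. bta-miR-486-3p amounted to 0.112% ± 0.016 of bta-miR-486 in liver, 0.0416% ± 0.0036 in muscles and 0.0711% ± 0.0090 in tongues. These ratios were not tested between tissues.

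**Figure D3:**
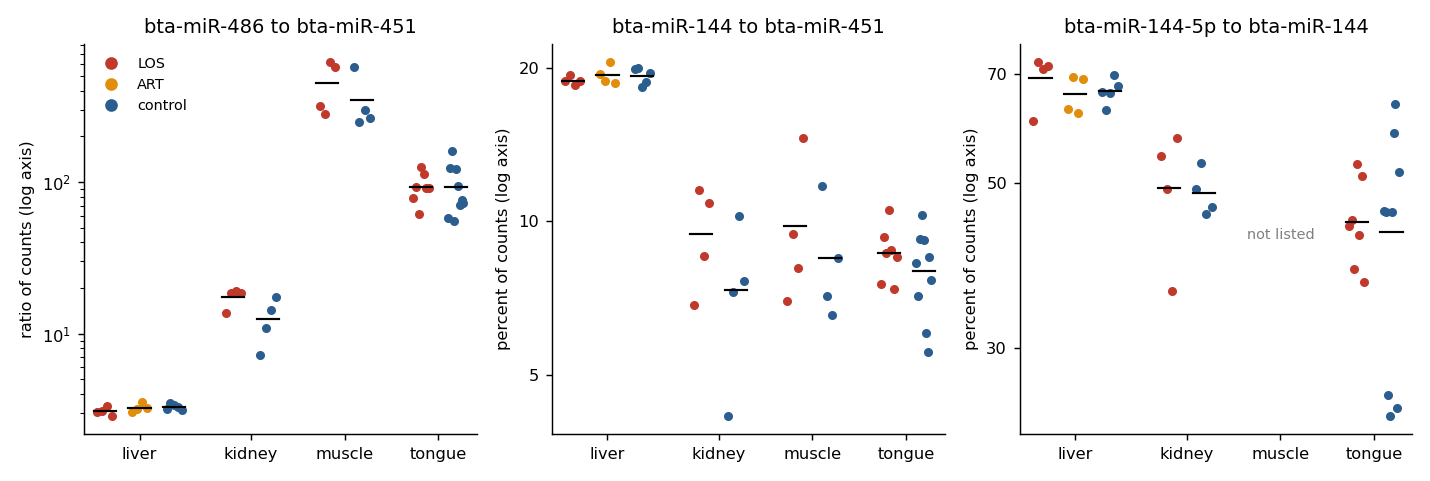
Ratio of bta-miR-486 to bta-miR-451, and bta-miR-144 as a percent of bta-miR-451 and bta-miR-144-5p as a percent of bta-miR-144, in every library on log axes, by tissue and phenotype; each point is 1 fetus and each bar a group mean. The first ratio separates the 4 tissues (means of 3.21 in liver, 15.0 in kidney, 398 in muscle, 93.1 in tongue), and the middle panel separates liver, at 18.3 to 20.5%, from the rest.

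The question of the phenotypes was whether the red-cell miRNAs differ with overgrowth or with assisted reproduction. None of the rows passed the test in any of these comparisons. In liver, where the 3 groups shared a fit, bta-miR-451 averaged 13641 ± 906 scaled CPM in LOS fetuses and 13450 ± 593 in control fetuses (SD, n = 4 and 5), a log2 difference of 0.02 ± 0.05 (SE, 95% interval -0.08 to 0.12, edgeR adjusted p = 0.880). bta-miR-144 differed by -0.01 ± 0.07 (interval -0.15 to 0.13), bta-miR-144-5p by 0.05 ± 0.07 (interval -0.09 to 0.19) and bta-miR-486 by -0.08 ± 0.06 (interval -0.21 to 0.06). The intervals of these 4 rows were narrow and included 0. In this comparison 1.24% of the 563 liver miRNAs were called. bta-miR-486-3p, with 152 to 271 reads per liver, averaged 50.5 ± 6.6 scaled CPM in LOS and 43.7 ± 4.7 in control livers, a difference of 0.21 ± 0.12 (interval -0.05 to 0.46, adjusted p = 0.453). All 4 LOS livers were above the control mean and 2 were above every control.

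ART livers gave the same picture against control. bta-miR-451 averaged 13331 ± 367 scaled CPM in ART and 13450 ± 593 in control livers (SD, n = 4 and 5), a difference of -0.01 ± 0.05 (interval -0.12 to 0.09, edgeR adjusted p = 0.976). bta-miR-144, bta-miR-144-5p and bta-miR-486 differed by -0.01 ± 0.07, -0.02 ± 0.07 and -0.03 ± 0.06. bta-miR-486-3p differed by 0.25 ± 0.12 (interval -0.01 to 0.50, adjusted p = 0.631). No miRNA of the table was called (0.0%) by edgeR or by limma-voom, DESeq2 called 6, and 46 had an unadjusted edgeR p under 0.05. Between LOS and ART livers, 2.66% of miRNAs were called, and bta-miR-451 differed by 0.03 ± 0.05 (interval -0.08 to 0.14), bta-miR-144 by -0.0014 ± 0.07, bta-miR-144-5p by 0.07 ± 0.07, bta-miR-486 by -0.04 ± 0.07 and bta-miR-486-3p by -0.04 ± 0.12. The 3 comparisons share groups of livers and are not independent.

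**Figure D4:**
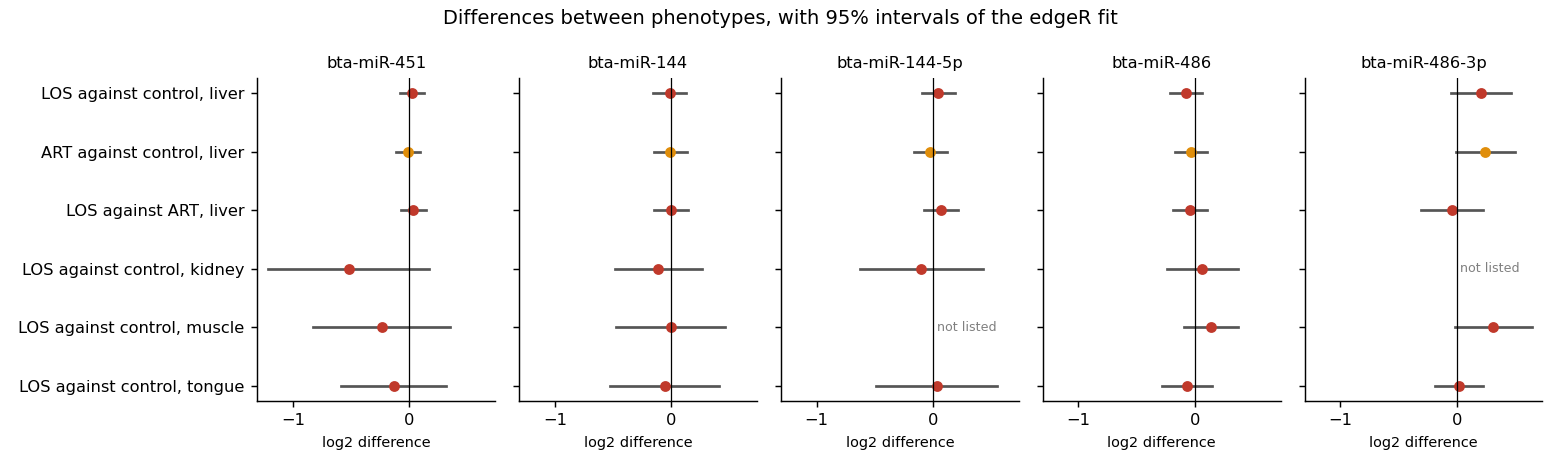
Log2 difference of each red-cell miRNA between phenotypes (points, tested over compared phenotype, in the colour of the phenotype named first) with 95% intervals of the edgeR fit (lines), by comparison. Every interval includes 0; those of bta-miR-451 run from -0.08 to 0.12 in liver and from -1.21 to 0.17 in kidney for LOS against control.

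Outside the liver the intervals were wider. In kidney bta-miR-451 averaged 130.3 ± 50.2 scaled CPM in LOS and 186.8 ± 76.5 in control fetuses (SD, n = 4 each), a difference of -0.52 ± 0.31 (SE, interval -1.21 to 0.17, edgeR adjusted p = 0.749). Leaving out each fetus in turn moved the difference between -0.82 (without LOS 1) and -0.23 (without control 1), and none of these passed. In each group number 1 was the highest, 2 LOS kidneys lay below every control, and the groups overlapped. bta-miR-144 differed by -0.11 ± 0.17, bta-miR-144-5p by -0.10 ± 0.24 and bta-miR-486 by 0.07 ± 0.14 in kidney. No kidney miRNA was called (0.0%) by edgeR or limma-voom, DESeq2 called 3, and 33 had an unadjusted edgeR p under 0.05. In muscle bta-miR-451 averaged 100.5 ± 30.5 scaled CPM in LOS and 118.7 ± 32.6 in control fetuses, a difference of -0.24 ± 0.26 (interval -0.83 to 0.35, adjusted p = 0.675), and it ran from -0.42 (without control 1) to -0.098 (without LOS 4) as each fetus was left out. bta-miR-144 differed by -0.0062 ± 0.21 and bta-miR-486 by 0.14 ± 0.10 (interval -0.09 to 0.37, adjusted p = 0.545). bta-miR-486-3p averaged 18.2 ± 2.8 scaled CPM in LOS and 14.6 ± 1.5 in control muscles, a difference of 0.31 ± 0.15 (interval -0.02 to 0.64, adjusted p = 0.376), and 3 of 4 LOS muscles were above every control. It rested on 72 to 113 reads per library. No muscle miRNA was called (0.0%) by edgeR or limma-voom, DESeq2 called 17, none of them a red-cell row, and 58 had an unadjusted edgeR p under 0.05.

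In tongue, fitted with a term for sex, bta-miR-451 averaged 211.5 ± 58.5 scaled CPM in LOS and 234.4 ± 74.5 in control fetuses (SD, n = 7 and 9), a difference of -0.14 ± 0.21 (SE, interval -0.59 to 0.31, edgeR adjusted p = 0.915). In the females alone it was 0.12. bta-miR-144 differed by -0.06 ± 0.22, bta-miR-144-5p by 0.03 ± 0.25, bta-miR-486 by -0.07 ± 0.10 and bta-miR-486-3p by 0.02 ± 0.10. None of the 460 miRNAs was called (0.0%) with edgeR, limma-voom or DESeq2, and 25 had an unadjusted edgeR p under 0.05. Between male and female tongues (n = 7 and 9) the 5 rows differed by -0.12 ± 0.22 for bta-miR-144 to 0.10 ± 0.21 for bta-miR-451, and again no miRNA was called (0.0%), with 62 at an unadjusted p under 0.05. The LOS difference was also compared between tissues in the pooled fit. The interaction of tissue and LOS had an adjusted p of 0.998 for bta-miR-144, 0.805 for bta-miR-451 and 0.758 for bta-miR-486, and 0.802% of the 374 miRNAs were called.

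No ratio passed between phenotypes, but outside tongue the groups were too small for a single ratio to pass the adjustment over 12 tests: the smallest p these groups can give is 0.0159 or 0.0286 in liver and 0.0286 in kidney and muscle. The absence of a call there says nothing about the ratios. Of the 12 tests of the ratios of bta-miR-486 and bta-miR-144 to bta-miR-451, the lowest p was that of bta-miR-486 to bta-miR-451 in kidney, at 17.5 ± 2.6 in LOS and 12.5 ± 4.4 in control fetuses (SD, n = 4 each). The log2 difference was 0.55 (two-sided exact permutation p = 0.0857, adjusted p = 0.543). In 3 of 4 LOS kidneys the ratio was above every control.

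Fetuses with more bta-miR-451 tended to have more bta-miR-144 in the same tissue. Over the 13 livers Pearson's r of log2 scaled CPM was 0.855 (permutation p = 0.00034, adjusted p = 0.00544 over 32 correlations) and Spearman's rho 0.780 (adjusted p = 0.0284). Without the 2 livers farthest from the median of bta-miR-451 r was 0.714, and within phenotypes, with group means removed, it was 0.878. In the 16 tongues r was 0.842 (permutation p = 8e-05, adjusted p = 0.00256), rho 0.809 (adjusted p = 0.0064), r without the 2 farthest 0.823, and r within phenotypes 0.853. bta-miR-144-5p likewise followed bta-miR-451 in tongue, with r of 0.752 (permutation adjusted p = 0.00597), rho of 0.741 (adjusted p = 0.0227) and 0.783 without the 2 farthest. In the smaller sets the pair did not pass, with r of 0.566 in kidney (exact permutation p = 0.139, adjusted p = 0.247, n = 8) and 0.477 in muscle (exact permutation p = 0.262, adjusted p = 0.381, n = 8). The values of a library share its total and scaling factor.

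**Figure D5:**
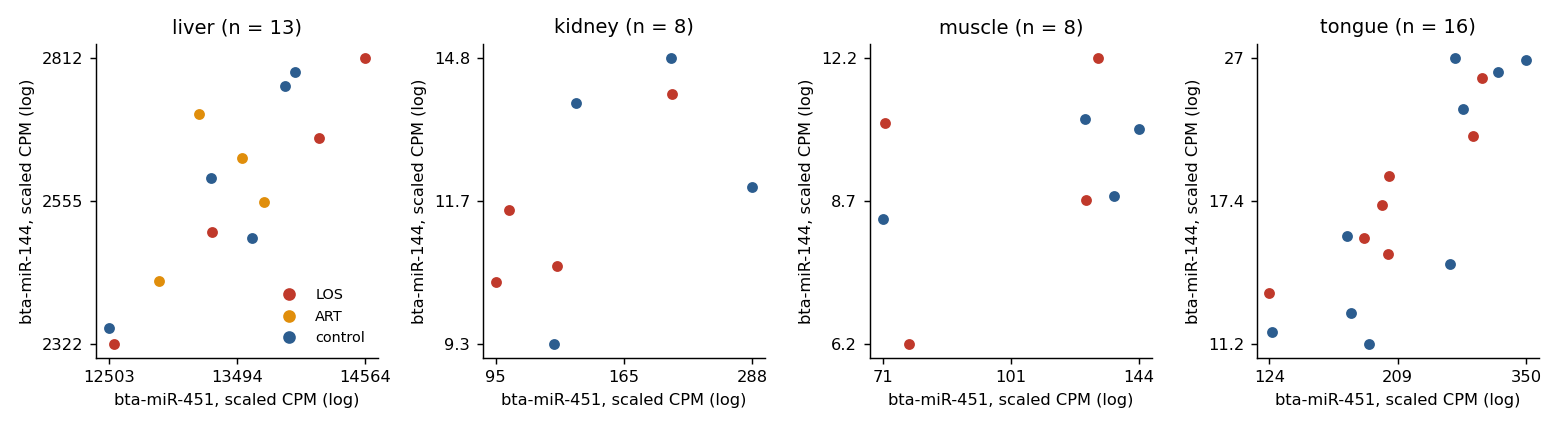
bta-miR-144 against bta-miR-451 in every library of each tissue, in CPM scaled by TMM within the tissue's table, on log axes whose ranges differ between panels; each point is 1 fetus, coloured by phenotype. The points rise together in liver (r = 0.855) and tongue (r = 0.842), with the phenotypes intermixed.

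bta-miR-486 did not pass with bta-miR-451 in any tissue, with r of 0.504 in liver (permutation adjusted p = 0.167, n = 13), 0.540 in kidney (exact permutation adjusted p = 0.315, n = 8), -0.691 in muscle (exact permutation adjusted p = 0.158, n = 8) and 0.239 in tongue (permutation adjusted p = 0.513, n = 16). In muscle its r with bta-miR-144 was -0.819 (exact permutation p = 0.0216, adjusted p = 0.0983, n = 8), and -0.582 without the 2 farthest libraries. Levels in a pair of tissues were also compared between libraries of the same number, over LOS 1 to 4 and control 1 to 4. The shared numbers were taken as the same fetus, which the labels do not state outright. Correlations across miRNAs of the deviations of same-numbered libraries from their group means had medians of 0.073 (liver and tongue) to 0.27 (tongue and kidney). Single values ran from -0.36 (liver and tongue) to 0.61 (muscle and kidney). Libraries of different numbers were not compared, so these values do not show that a number is 1 fetus. None of the 24 correlations of a red-cell row between tissues passed. The lowest p was that of bta-miR-486 in liver and tongue (r = 0.738, exact permutation p = 0.0394, adjusted p = 0.63, n = 8 numbers).

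The other miRNAs whose levels followed bta-miR-451 most closely were then listed, as a description. Over the 13 livers bta-miR-144 came first of 562 miRNAs, followed by bta-miR-11991 (r = 0.797), bta-miR-454 (0.793), bta-miR-2435 (0.663) and bta-miR-381 (0.650). The central 90% of all miRNAs ran from -0.468 to 0.463. bta-miR-144-5p ranked 12 and bta-miR-486 ranked 25. Over the 32 kidney, muscle and tongue libraries, with each tissue's mean removed, bta-miR-144 was again first, of 378 (r = 0.679), followed by bta-miR-temp97-5p (0.610), bta-miR-temp81-5p (0.539), bta-miR-temp94-3p (0.538) and bta-miR-1246 (0.512). Within single tissues bta-miR-144 ranked 1 of 459 in tongue (r = 0.842), 22 of 435 in kidney (0.566) and 86 of 438 in muscle (0.477). Names with "temp" are temporary names of the tables, and bta-miR-temp81-5p and bta-miR-temp94-3p also had the same r in kidney alone (0.794 each). Over the 32 libraries bta-miR-486 ranked 95, with r of 0.160.

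A list of 19 other miRNAs that are abundant in red cells or rise as they mature (among them the miR-15 and miR-16 family, miR-92a, miR-22-3p, miR-191 and the miR-96, miR-182 and miR-183 cluster) had 18 members in the pooled fit. Against kidney 12 were called higher and 6 lower in liver, with a median of 0.49 beside 0.24 over all miRNAs. Against muscle 16 were higher and 1 lower (median 1.37 beside 0.10), and against tongue 14 were higher and 4 lower (median 0.90 beside 0.17). Among them miR-182 averaged 185.1 scaled CPM in liver, 1504 in kidney, 69.7 in muscle and 1713 in tongue. The most abundant in liver, miR-92a and miR-22-3p, were higher there than in kidney by 0.73 ± 0.08 and 1.30 ± 0.05. Without scaling factors, an alternative chosen for the lists after seeing the data, 13 were higher and 3 lower in liver than in kidney (median 1.36 beside 1.11 over all miRNAs). Against muscle 17 were higher and 0 lower (2.13 beside 0.87), and against tongue 14 and 2 (1.28 beside 0.53). Over all 374 miRNAs, 50.5%, 47.3% and 48.9% were called higher in liver with TMM factors. Of all calls, 72.9%, 69.6% and 64.6% were higher in liver without the factors, and 55.4%, 52.8% and 54.8% with them. No member of the list passed between LOS and control livers, where miR-92a differed by -0.22 ± 0.06 (edgeR adjusted p = 0.107) and miR-22-3p by 0.03 ± 0.04. In that comparison 10 of 18 lay above 0 (median 0.0118 beside 0.0132 over all miRNAs). None passed in kidney, muscle or tongue. In kidney 14 of 18 were above 0 (median 0.10 beside 0.0064 over all miRNAs), in muscle 6 of 18 (-0.155 beside -0.0125) and in tongue 15 of 19 (0.0253 beside 0.0103). The list's summed level was 129700 to 138200 CPM in LOS, 134600 to 140500 CPM in ART and 138400 to 144000 CPM in control livers. Every LOS liver thus lay below every control liver in this sum, while ART livers overlapped both groups. Of the single liver miRNAs, 4.44% did not overlap between LOS and control. The difference in the sum was not tested.

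miRNAs of white blood cells (miR-142-3p, miR-142-5p, miR-223, miR-150, miR-155, miR-146a, miR-146b and miR-342) were also higher in liver by their sum. All 8 were listed in liver and 7 elsewhere, miR-223, a myeloid miRNA, being listed in liver alone. Their sum was 6195 to 6651 CPM in LOS, 6360 to 6887 CPM in ART and 6508 to 7200 CPM in control livers. In kidney it was 903 to 1026 CPM in LOS and 914 to 1109 CPM in control fetuses, in muscle 673 to 971 CPM in LOS and 713 to 773 CPM in control fetuses, and in tongue 1106 to 1356 CPM in LOS and 920 to 1436 CPM in control fetuses. Of the 7 in the pooled fit, 4 were higher and 2 lower in liver than in kidney (median 1.93 beside 0.24 over all miRNAs). Against muscle 5 were higher and 1 lower (2.60 beside 0.10), and against tongue 4 were higher and 0 lower (1.79 beside 0.17). Over all 374 miRNAs, 50.5%, 47.3% and 48.9% were called higher in liver. Without scaling the counts of the 7 were 5 and 1, 6 and 0, and 6 and 0. Of all calls, 72.9%, 69.6% and 64.6% were then higher in liver, against 55.4%, 52.8% and 54.8% of calls with TMM factors. miR-142-5p, a miRNA of blood cell lineages in general, was higher in liver than in kidney by 4.84 ± 0.14, in muscle by 4.95 ± 0.14 and in tongue by 4.64 ± 0.13, while miR-342 differed by 0.18 ± 0.09, 0.42 ± 0.09 and 0.15 ± 0.09 and passed against muscle alone, or against all 3 without scaling. Their part in the liver levels of bta-miR-451 and bta-miR-144 was not tested. No white blood cell miRNA was called between LOS and control in any tissue.

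miRNAs reported to fall as red cells mature (miR-150, miR-155, miR-221, miR-222 and miR-223, of which 3 are also on the white blood cell list) did not pass between LOS and control livers, with a median of -0.10 and the lowest value at miR-150, -0.38 ± 0.12 (edgeR adjusted p = 0.161). Of 4 in the pooled fit, 1 was higher and 2 lower in liver than in kidney (median -0.41 beside 0.24 over all miRNAs). Against muscle 2 were higher and 1 lower (1.10 beside 0.10), and against tongue 2 were higher (1.17 beside 0.17). Without scaling these counts were 2 and 1, 3 and 0, and 4 and 0. The unscaled medians were 0.455, 1.87 and 1.54, beside 1.11, 0.87 and 0.53 over all miRNAs, so that against kidney lay below all miRNAs. Of all calls, 72.9%, 69.6% and 64.6% were higher in liver without scaling, and 55.4%, 52.8% and 54.8% with TMM factors. Over all 374 miRNAs, 50.5%, 47.3% and 48.9% were called higher in liver with TMM factors. Of the 3 endothelial miRNAs (miR-126-3p, miR-126-5p and miR-139), which stand for the vessel walls, 1 was higher and 2 lower in liver than in kidney. Against muscle 1 was higher and 1 lower, and likewise against tongue. Their medians were -0.38, -0.17 and 0.05, beside 0.24, 0.10 and 0.17 over all miRNAs. Without scaling the counts were 3 and 0, 3 and 0, and 2 and 0. The unscaled medians of 0.483, 0.595 and 0.426 lay below those of all miRNAs (1.11, 0.87 and 0.53), where 72.9%, 69.6% and 64.6% of calls were higher in liver. miR-139 was higher in liver with either scaling, by 1.19 ± 0.08 against kidney, 0.59 ± 0.07 against muscle and 0.63 ± 0.07 against tongue with TMM factors. miR-126-5p was lower in liver than in kidney by -0.62 ± 0.07 and than in muscle by -0.21 ± 0.07 with TMM factors, but higher by 0.25 and 0.57 without them, and it differed by 0.05 ± 0.07 from tongue with the factors and by 0.43 without. miR-192 of the hepatocyte list was the sole member of the lists called between phenotypes, lower in LOS than in ART livers by -0.29 ± 0.06 (adjusted p = 0.0260), where none of the red-cell rows passed.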

How the data were processed

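The deposited tables hold raw read counts per mature miRNA and library, whole numbers made by the authors, a table per tissue. The submitters' processing notes name Bowtie and the bovine genome UMD3.1, and for tongue cutadapt 1.18. Which tool counted the reads, and what was filtered, is not given in the sources used here. In liver, kidney, muscle and tongue the lowest listed counts were 3, 16, 6 and 8, so totals are of listed miRNAs and not full depths.

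From these counts CPM, TMM factors and edgeR 4.0.16 quasi-likelihood tests were computed in R 4.3.3 with all miRNAs of a table, with limma 3.58.1 (voom) and DESeq2 1.42.0 as alternatives. The filterByExpr function removed none of the red-cell rows. Log2 CPM used a prior count of 2, and intervals have a confidence level of 95%. In the pooled fit the fetus number was a block, taken as the same fetus in each tissue, which the labels do not state outright. Permutation tests (SciPy 1.17.1, two-sided) served ratios and correlations. They were exact for all ratios and for correlations below 10 fetuses, and used 100000 resamples for the other correlations. Inside a tissue a number shared by LOS and control marks no shared animal. Dams and processing days are not labelled, so p-values measure the spread between these samples, which may be partly technical. Counting errors cover counting alone.

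The miRNAs and lists were chosen with earlier results of these data known. Named miRNAs were every row of the 3 miRNAs and the 5 most like bta-miR-451 over livers and over the other tissues. Of each list they were the members called between phenotypes and the 2 most abundant in liver. Those of lists that the text does not turn on are left out. Names outside this rule include miR-182, a list member with a lower mean in liver than in kidney and tongue. Alternatives were other scaling factors, other filters, other tools, leaving out each fetus, replicate blocks, 2-group fits, females alone and single phenotypes.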

Additional observations from a re-analysis of the deposited data

How the results depend on the processing

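Over the alternatives, 615 of 666 log2 differences of red-cell rows between phenotypes or sexes kept their sign, none passed the test (lowest adjusted p = 0.225), and the 51 that changed sign were at most 0.16 in size. The liver excess of bta-miR-451 ran from 5.43 to 6.54 (log2) against kidney, 6.08 to 7.00 against muscle and 5.51 to 6.02 against tongue, and that of bta-miR-144 from 6.79 to 7.79, 7.24 to 8.12 and 6.60 to 7.11. Depth limits bta-miR-144 and the scarce arms outside liver. Listed reads, not full depths, are the base of every CPM.

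Without scaling factors bta-miR-486 in liver against muscle turned to 0.19. The cause of this and of the changes below was not tested. Values near 0 that turned were, for bta-miR-144, LOS against control, 0.0026 in liver without scaling, 0.0050 (RLE factors) and 0.0067 (DESeq2) in muscle, and 0.023 (limma-voom) and 0.095 (females alone) in tongue; LOS against ART in liver gave 0.030 without scaling and 0.0012 with a mean CPM of at least 10. bta-miR-451 turned to 0.12 in tongue in females alone (LOS against control) and to -0.19 for tongue against kidney in control fetuses alone. The correlation of bta-miR-486 between liver and kidney turned to -0.0059 on unscaled CPM.

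Counts of calls over all miRNAs moved more. In muscle 0 became 3 with RLE factors, 3 with the mean CPM filter and 17 with DESeq2. DESeq2 called 20 (LOS against control), 6 (ART against control) and 27 (LOS against ART) in liver, and 3 in kidney. With only the compared groups of livers in the fit, 1 was called for ART against control and 6 for LOS against ART. Without tongue the interaction of tissue and LOS had 5 calls. The replicate number within a tissue did not pair fetuses (correlations of same-numbered LOS and control libraries ran from -0.36 to 0.27). With the replicate number as a block, 0 (LOS against control), 1 (ART against control) and 3 (LOS against ART) liver miRNAs were called, and bta-miR-144 in tongue was at 0.16.

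Leaving out each fetus in turn gave 6 to 12 calls for LOS against control, 0 to 5 for ART against control (5 without control 5) and 5 to 20 for LOS against ART (5 without LOS 1) in liver. It gave 0 to 2 calls in kidney, 0 to 1 in muscle and 0 to 9 for the interaction (9 without LOS 2). In liver, LOS against control, the range was -0.016 to 0.059 for bta-miR-451, -0.057 to 0.035 for bta-miR-144 and -0.028 to 0.089 for bta-miR-144-5p. For ART against control it was -0.044 to 0.0011 for bta-miR-451, -0.051 to 0.017 for bta-miR-144 and -0.072 to 0.0032 for bta-miR-486. For LOS against ART it was -0.046 to 0.045 for bta-miR-144, -0.0055 to 0.11 for bta-miR-144-5p and -0.11 to 0.048 for bta-miR-486-3p. For LOS against control it was -0.25 to 0.058 for bta-miR-144-5p and -0.071 to 0.16 for bta-miR-486 in kidney, and -0.15 to 0.14 for bta-miR-144 in muscle. In tongue it was -0.14 to 0.042 for bta-miR-144, -0.082 to 0.17 for bta-miR-144-5p and -0.013 to 0.087 for bta-miR-486-3p. Male against female tongues gave -0.12 to 0.21 for bta-miR-144-5p and -0.0039 to 0.19 for bta-miR-451. For tongue against kidney bta-miR-451 ran from -0.087 to 0.088, and for muscle against kidney from -0.67 to -0.37, with bta-miR-144 from -0.49 to -0.37. The log2 ratio of bta-miR-486 to bta-miR-451 ran from -0.062 to 0.0079 for ART against control in liver and from -0.016 to 0.18 for LOS against control in tongue. That of bta-miR-144 to bta-miR-451 ran from -0.025 to 0.022 for ART against control in liver and from -0.023 to 0.36 for LOS against control in muscle.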
